A study of Mus musculus with 14 samples.

Results

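The genes described here are 10 core genes of the hypoxia response, namely *Ankrd37*, *Car9*, *Vegfa*, *Bnip3*, *Pdk1*, *Egln3*, *Ndrg1*, *Slc2a1*, *Adm* and *Hif1a*. They were chosen by name and form 10 of the 19525 genes counted. The choice was made with earlier results of these data known, among them the levels in replicate 2 of both control groups, and these levels are therefore given as a description, with no test. All 10 genes were measured in all 14 libraries, and *Ankrd37*, after which the group is named, is given no p-value in any comparison.

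Polyadenylated RNA was sequenced from cytosolic lysates of spheroids, small round tumor-like aggregates, of the mouse triple-negative mammary cancer line 4T1. They had grown for 5 days in a medium made to resemble the lung environment. Every group carried a lentiviral hairpin in a polyclonal cell population. Spheroids with the non-targeting hairpin shSCR received 700 µM aspartate (ASP shSCR, n = 4) or none added (NoASP shSCR, n = 3, numbered 2 to 4). Spheroids with a hairpin against *Grin2d*, an NMDA receptor subunit (ASP shGRIN2D, n = 3), or against *Dhps*, the first enzyme of eIF5A hypusination (ASP shDHPS, n = 4), also received 700 µM aspartate. The labels do not say what a replicate number stands for, so p-values measure the spread between these libraries.

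In cells with enough oxygen, prolyl hydroxylases of the EGLN family mark the alpha subunit of the hypoxia-inducible factor (HIF) for destruction by the VHL ubiquitin ligase. When oxygen falls, the subunit accumulates, pairs with ARNT and binds short DNA elements with the core ACGTG or GCGTG near its target genes. These targets raise glucose uptake, turn pyruvate away from mitochondria, regulate pH and call for blood vessels. HIF-1 alpha is controlled mainly at the protein level, and its own transcript is not a measure of its activity. Solid tumors and large spheroids often hold poorly oxygenated cells in their core.

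Promoter sequences are shown for *Ankrd37* and *Bnip3*, whose levels moved furthest in the libraries described next among genes with both cores in the window, for *Pdk1*, the gene that lay lower in both knockdowns besides *Ankrd37*, and for *Hif1a*, which was not higher in those libraries. The RefSeq promoter windows (250 bases before to 50 after the start, GRCm38.p6, an older build than the one used for the counts) matched 9 of the 10 genes and gave 11 windows; *Ndrg1* was not matched. Capitals mark ACGTG or GCGTG on either strand, the reverse strand reading CACGT or CACGC, and matches that overlap run together.
Ankrd37, chr8:45999801-46000100, minus strand: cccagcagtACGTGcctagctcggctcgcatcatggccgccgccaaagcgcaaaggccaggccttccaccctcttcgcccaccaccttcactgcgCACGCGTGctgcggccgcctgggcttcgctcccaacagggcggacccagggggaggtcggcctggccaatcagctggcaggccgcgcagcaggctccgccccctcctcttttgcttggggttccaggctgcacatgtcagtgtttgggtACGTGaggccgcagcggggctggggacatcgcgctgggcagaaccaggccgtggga
Bnip3, chr7:138909457-138909756, minus strand: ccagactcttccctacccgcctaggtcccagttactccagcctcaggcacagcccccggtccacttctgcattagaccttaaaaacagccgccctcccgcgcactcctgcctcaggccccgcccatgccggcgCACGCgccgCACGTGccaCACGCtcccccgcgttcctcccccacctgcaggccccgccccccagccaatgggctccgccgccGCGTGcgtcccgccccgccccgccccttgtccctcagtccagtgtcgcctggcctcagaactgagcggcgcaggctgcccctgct
Pdk1, chr2:71872974-71873273, plus strand: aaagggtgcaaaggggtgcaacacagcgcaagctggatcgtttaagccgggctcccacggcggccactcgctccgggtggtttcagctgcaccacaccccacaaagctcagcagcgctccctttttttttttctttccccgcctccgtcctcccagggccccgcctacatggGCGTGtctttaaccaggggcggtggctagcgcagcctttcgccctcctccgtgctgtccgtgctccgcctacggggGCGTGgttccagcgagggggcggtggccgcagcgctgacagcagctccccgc
Hif1a, chr12:73907617-73907916, plus strand: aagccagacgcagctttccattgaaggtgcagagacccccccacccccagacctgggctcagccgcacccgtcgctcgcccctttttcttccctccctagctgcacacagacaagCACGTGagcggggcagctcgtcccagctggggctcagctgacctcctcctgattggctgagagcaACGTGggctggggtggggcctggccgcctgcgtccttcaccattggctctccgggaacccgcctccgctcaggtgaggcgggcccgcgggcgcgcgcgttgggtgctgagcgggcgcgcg
The *Ankrd37* window held 2 ACGTG and 2 GCGTG matches, that of *Bnip3* 2 and 3, that of *Pdk1* 0 and 2, and that of *Hif1a* 3 and 0. A palindromic CACGTG counts as 2 ACGTG matches. Of the 11 windows, 9 held at least 1 match, and the other 2 were the second windows of *Vegfa* and *Pdk1*. Windows are numbered by chromosome position. *Vegfa* lies on the minus strand, so its second window, with 0 matches, is the upstream one. Among 32851 promoter windows of all genes, 43.8% held either core, 19.6% ACGTG and 32.4% GCGTG. The letters occurred in the window of *Hif1a* as well as in those of genes that moved.

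Total counts were between 12731123 and 23231378 per library. Levels are given as CPM, reads scaled to a common library size with TMM factors. Of the epithelial markers, which a mammary cancer line should express, 5 of 6 were measured, with *Krt5* not measured, and their summed level was 3092 to 3721 CPM in the knockdowns and 3988 to 4143 CPM in the shSCR libraries. The leukocyte, endothelial and fibroblast markers had 3 of 6, 2 of 4 and 2 of 4 measured, with sums of 5.99 to 16.6, 0 to 0.550 and 22.7 to 40.7 CPM. Among their defining genes, *Ptprc* had at most 12 counts, *Pecam1* at most 10 and *Dcn* at most 1, and the sums rested on *Cd68* and *Pdgfra*. *Dhps* measured 5.46 to 9.08 CPM in ASP shDHPS and 16.7 to 23.8 CPM elsewhere. *Grin2d* measured 2.06 to 3.13 CPM in ASP shGRIN2D and 3.23 to 4.16 CPM in ASP shSCR, with no overlap, but from only 37 to 76 counts. It overlapped ASP shGRIN2D in the other groups, with 2.21 CPM in ASP shDHPS replicate 1 and 3.05 CPM in NoASP shSCR replicate 2.

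Replicate 2 of ASP shSCR and replicate 2 of NoASP shSCR stood apart from the other libraries of their groups. On the first principal component of log2 CPM (32.3% of the variance) they lay at -25.8 and -19.7, while the other shSCR libraries lay between -8.66 and 6.28. The ASP shGRIN2D libraries lay between -4.83 and 0.740. The ASP shDHPS libraries lay between 6.33 and 27.6, so this axis does not mark replicate 2 alone. The summed fibroblast markers were 33.1 to 40.7 CPM in both replicate 2 shSCR libraries and 22.7 to 32.8 CPM in the 12 others, with *Dcn* at or near 0, and their part in the results was not tested. Each result that rests on these 2 libraries is given with and without them, and "without replicate 2" always means without this pair.

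**Figure D1:**
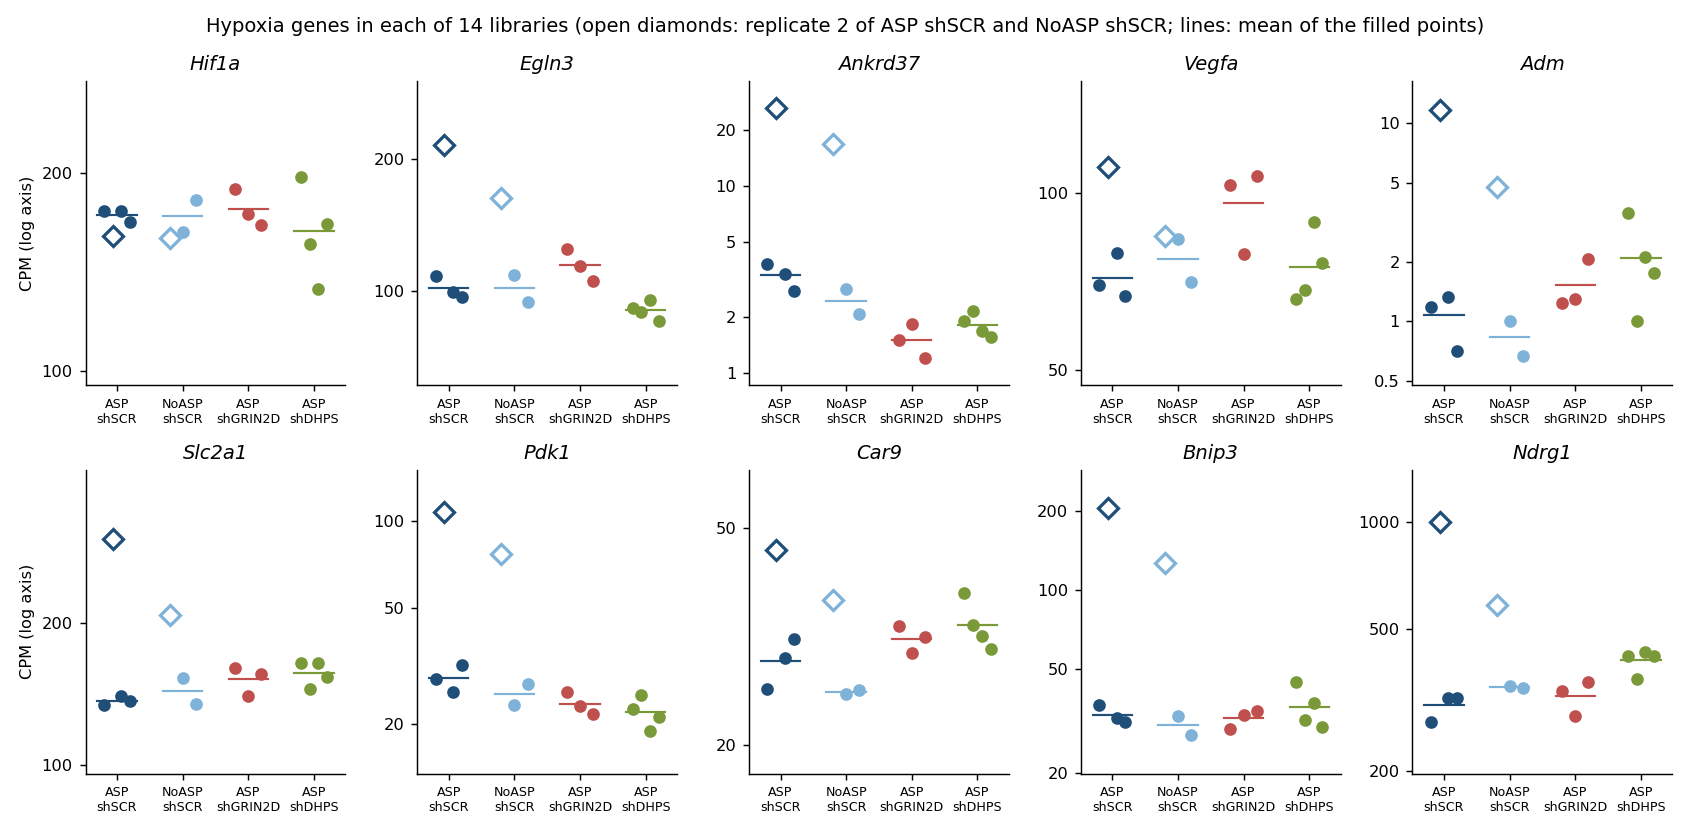
Level of each hypoxia gene in CPM (log axis) in each library, by group. Filled points are single libraries, lines their mean, and open diamonds replicate 2 of ASP shSCR and NoASP shSCR; both diamonds lie above all 12 other libraries for 7 genes, and not for *Hif1a*, *Vegfa* and *Car9*.

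In these 2 libraries, 9 of the 10 hypoxia genes were higher than in the other libraries of their group, and *Hif1a* was not. Of the genes that averaged 5 CPM or more, 29 of 10224 (0.284%) were at least 2-fold higher in both replicate 2 libraries, 0.0587% at least 2-fold lower, and 1304 (12.8%) lay above all 12 other libraries. Of the 8 hypoxia genes that passed this filter, *Bnip3* and *Pdk1* met the former criterion and 5 the latter. *Ankrd37* (mean 4.98 CPM) and *Adm* (2.45 CPM) fell under the filter. With a filter of 1 CPM, chosen after the data were examined, all 10 passed, 4 were at least 2-fold higher in both libraries (0.449% of 12039 genes) and 7 lay above all 12 others (11.9%). The members were chosen with this pattern known, so nothing is read from their counts.

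*Hif1a* (ENSMUSG00000021109), the oxygen-regulated alpha subunit, measured 175, 160.3, 175 and 169 CPM in ASP shSCR replicates 1 to 4 and 159, 163 and 182 CPM in NoASP shSCR replicates 2 to 4. Its levels were 189, 173 and 167 CPM in ASP shGRIN2D and 197, 156, 133 and 167 CPM in ASP shDHPS. All groups overlapped, the whole range was 1.48-fold, and the difference of replicate 2 from the other libraries was -0.11 on the log2 scale in both shSCR groups. *Egln3* (ENSMUSG00000035105), the prolyl hydroxylase PHD3 that acts on HIF and is also a HIF target, measured 109, 215, 99.5 and 97.3 CPM in ASP shSCR and 163, 109 and 94.9 CPM in NoASP shSCR. It measured 125, 114 and 105 CPM in ASP shGRIN2D and 91.6, 89.9, 95.8 and 85.8 CPM in ASP shDHPS. Replicate 2 was high in both control groups, by 1.08 and 0.68 on the log2 scale, and every ASP shDHPS library lay under every ASP shGRIN2D and ASP shSCR library.

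*Ankrd37* (ENSMUSG00000050914), a small ankyrin repeat protein long known as a HIF-1 target, had the widest range of the 10 genes. It measured 3.85, 26.3, 3.38 and 2.75 CPM in ASP shSCR and 16.9, 2.80 and 2.06 CPM in NoASP shSCR. In the knockdowns it measured 1.49, 1.82 and 1.2 CPM (ASP shGRIN2D) and 1.89, 2.13, 1.67 and 1.55 CPM (ASP shDHPS). Replicate 2 exceeded the other libraries of its group 7.75-fold with and 6.76-fold without aspartate (2.95 and 2.76 on the log2 scale). The highest and lowest library differed 21.9-fold, and 3.21-fold among the 12 other libraries. Counts were 18 to 472, so the low levels rest on few reads.

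The secreted factors differed from each other. *Vegfa* (ENSMUSG00000023951), which drives the growth of blood vessels, measured 69.7, 111, 79.2 and 66.7 CPM in ASP shSCR and 84.6, 83.7 and 70.7 CPM in NoASP shSCR. Its levels were 103, 78.7 and 107 CPM in ASP shGRIN2D and 65.9, 68.4, 89.3 and 76.2 CPM in ASP shDHPS. Replicate 2 of ASP shSCR was the highest library, whereas replicate 2 of NoASP shSCR lay among the others. *Adm* (ENSMUSG00000030790), the vasodilating peptide adrenomedullin, had 9 to 210 counts. It measured 1.18, 11.7, 1.32 and 0.707 CPM in ASP shSCR and 4.76, 1.00 and 0.667 CPM in NoASP shSCR, with 0.999 to 3.52 CPM in the 7 knockdown libraries. Replicate 2 was higher by 3.36 and 2.39 on the log2 scale, the largest difference of the 10 genes in ASP shSCR.

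Genes of glucose metabolism also moved to different degrees. *Slc2a1* (ENSMUSG00000028645), the glucose transporter GLUT1, measured 134, 302, 140.4 and 137 CPM in ASP shSCR and 208, 153 and 135 CPM in NoASP shSCR. It lay between 140.0 and 165 CPM in the knockdowns, and apart from replicate 2 its range over 12 libraries was 1.23-fold. *Pdk1* (ENSMUSG00000006494), the kinase that restrains the entry of pyruvate into the citric acid cycle, measured 28.6, 107, 25.8 and 32.0 CPM in ASP shSCR and 77.0, 23.2 and 27.5 CPM in NoASP shSCR. It measured 25.8, 23.0 and 21.6 CPM in ASP shGRIN2D and 22.5, 25.0, 18.8 and 21.1 CPM in ASP shDHPS. Replicate 2 was higher 3.72-fold and 3.04-fold, rank 4 of 10224 genes of at least 5 CPM by the smaller of both differences, and rank 12 of 12039 genes of at least 1 CPM. *Car9* (ENSMUSG00000028463), a carbonic anhydrase of the cell surface that regulates pH, measured 25.4, 45.6, 28.9 and 31.3 CPM in ASP shSCR and 36.9, 24.9 and 25.2 CPM in NoASP shSCR, against 29.5 to 38.0 CPM in the knockdowns. The highest ASP shDHPS library lay above replicate 2 of NoASP shSCR.

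*Bnip3* (ENSMUSG00000078566), a receptor for the removal of mitochondria, measured 36.5, 205, 32.4 and 31.4 CPM in ASP shSCR and 127, 33.1 and 27.9 CPM in NoASP shSCR, and 29.5 to 44.4 CPM in the knockdowns. Replicate 2 was higher 6.12-fold and 4.17-fold, rank 1 of 10224 genes of at least 5 CPM, which leave out *Ankrd37* and *Adm*, and rank 6 of 12039 genes of at least 1 CPM, and the 12 other libraries differed at most 1.59-fold. *Ndrg1* (ENSMUSG00000005125), a stress-induced gene, had the highest CPM of the 10. It measured 275, 999.7, 321 and 322 CPM in ASP shSCR and 585, 346 and 341 CPM in NoASP shSCR. It measured 335, 285 and 356 CPM in ASP shGRIN2D and 421, 363, 432 and 420.4 CPM in ASP shDHPS, where every library lay above the ASP shGRIN2D libraries and the 5 other shSCR libraries.

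**Figure D2:**
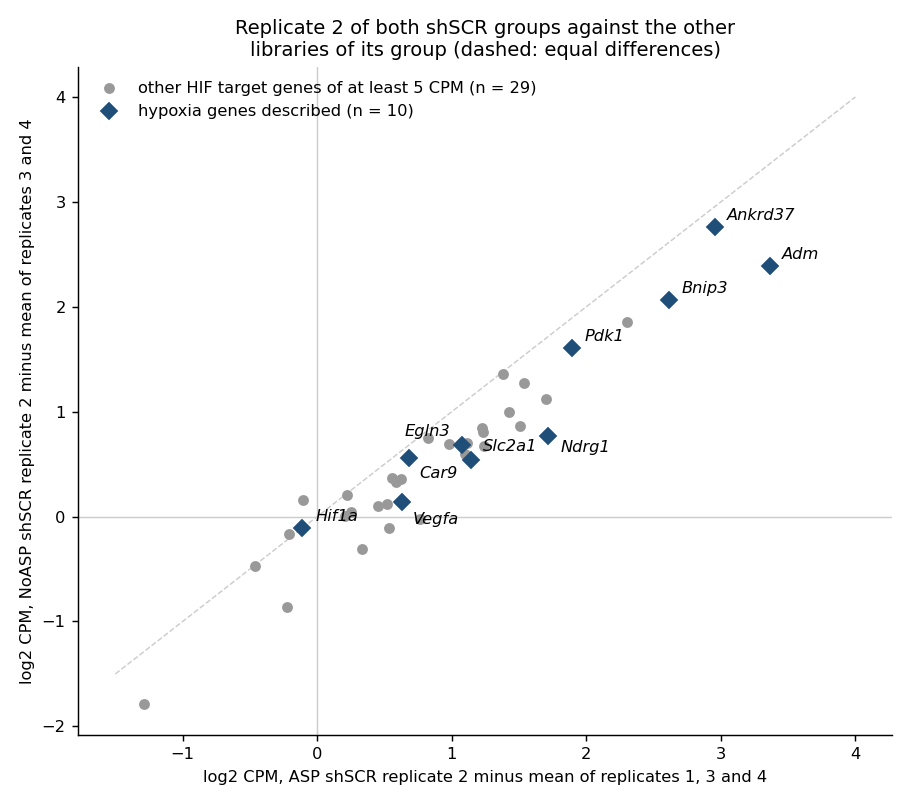
Difference in log2 CPM between replicate 2 and the mean of the other libraries of its group, in ASP shSCR (x axis) and NoASP shSCR (y axis). Diamonds are the 10 hypoxia genes and grey points 29 other HIF target genes of at least 5 CPM; of the plotted genes *Adm*, *Ankrd37* and *Bnip3* lie furthest from 0, and *Hif1a* at -0.11 on both axes. The hypoxia genes are plotted at any level, and *Nos2*, a HIF target under 5 CPM with 3.36 and 2.59, is not plotted.

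The same libraries were compared over lists of hypoxia genes. These lists were also chosen with earlier results of these data known, so the shares are a description with no test. Of 29 other HIF target genes with at least 5 CPM, 4 (13.8%, beside 0.284% of all genes) were at least 2-fold higher in both replicate 2 libraries and 16 (55.2%, beside 12.8%) lay above all 12 others. The 4 were *P4ha2*, a collagen prolyl hydroxylase (2.30 and 1.86 on the log2 scale), *Aldoc*, *Bhlhe40* and *Ddit4*, and 1 gene, *Angptl4*, was at least 2-fold lower in both (-1.28 and -1.79). *P4ha2* passed the filter only through the replicate 2 libraries, since its mean in the others was 3.93 to 4.59 CPM by group. *Nos2*, the inducible nitric oxide synthase, fell under the filter and was higher by 3.36 and 2.59 on the log2 scale, rank 3 of 12039 genes of at least 1 CPM. These 6 were named after their values were seen. Genes outside the 10 and the HIF targets ranked as high. Of the 10224 genes of at least 5 CPM, *Vcam1*, *Ero1a*, *Lcn2*, *Zc3h12a*, *Bahcc1* and *Cxcl5* held ranks 3, 5, 6, 7, 8 and 10 by the smaller of both differences. Of 144 HALLMARK_HYPOXIA genes outside the 10, 10 (6.94%) were at least 2-fold higher and 52 (36.1%) lay above all 12 others. Of 15 regulators of HIF, 0 were 2-fold higher in both and 5 (33.3%) lay above all 12 others. Among them, *Egln1*, the main oxygen-sensing prolyl hydroxylase, was higher by 1.11 and 0.71, *Vhl* by 0.60 and 0.40 and *Arnt* by 0.36 and 0.39 on the log2 scale, while *Hif1an* differed by 0.10 and -0.02.

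Whether aspartate changes these transcripts was asked within the shSCR spheroids, where 0 of the 9 tested hypoxia genes passed (edgeR quasi-likelihood test, Benjamini-Hochberg over 19525 genes). At an unadjusted p under 0.05 the count was 0, and DESeq2 called 0. Over all genes, 0% were called, by edgeR and by DESeq2, and 424 had an unadjusted p under 0.05. All 10 log2 fold changes were above 0, and without both replicate 2 libraries 6 were above and 4 below 0. All 10 genes overlapped between the groups. For *Ankrd37*, the level with aspartate was 9.07 ± 11.5 CPM (SD, n = 4) and that without it 7.24 ± 8.34 CPM (SD, n = 3). The log2 difference was 0.33 (SE 0.62), or 0.46 (SE 0.29) when replicate 2 was left out, where the groups overlapped as well. Leaving out replicate 2 also set *Car9* higher and *Ndrg1* lower with no overlap, as it did 7.4% and 10.1% of all genes, and 0% of all genes were called. Same-numbered libraries deviated together in these groups. A replicate block within the 7 shSCR libraries called *Bnip3* (0.32 on the log2 scale; edgeR, adjusted p = 0.0302, with 0.0302 to 1 among 16 alternatives) and 64 genes in all, whereas a replicate block over all 14 libraries called 0 of the 9 and 2 genes in all. Without a block the log2 fold change of *Bnip3* was 0.28, or 0.13 without replicate 2. For *Hif1a* the log2 fold change was 0.02, with a 95% confidence interval from -0.20 to 0.24.

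The GRIN2D knockdown was set against ASP shSCR to test the loss of the receptor subunit with aspartate present. Of the 9 tested genes, 0 were called beside 1.16% of all genes, 2 had an unadjusted p under 0.05, as had 2040 of the 19525 genes, and DESeq2 called 0. *Ankrd37* measured 1.50 ± 0.310 CPM (SD, n = 3) against 9.07 ± 11.5 CPM (SD, n = 4), and the log2 difference was -2.58 (SE 0.74). Without replicate 2 of both shSCR groups the control level was 3.33 ± 0.551 CPM (SD, n = 3) and the log2 fold change -1.15 (0.27). The groups did not overlap in either case. *Pdk1* was the other gene with groups apart, at 23.5 ± 2.11 against 48.3 ± 39.1 CPM (SD, n = 3 and 4), and its log2 fold change was -1.04 (edgeR, Benjamini-Hochberg adjusted p = 0.306), or -0.29 without replicate 2 (edgeR, adjusted p = 0.427). The *Pdk1* groups only just failed to overlap, with 25.75 CPM in ASP shGRIN2D replicate 1 and 25.78 CPM in ASP shSCR replicate 3. Over all genes, 6.4% lay lower with no overlap, and 9.08% without replicate 2. In this comparison without replicate 2, 1.23% of all genes were called. *Bnip3*, with *Pdk1* one of the genes under the unadjusted threshold, had a log2 fold change of -1.24 with and -0.05 without replicate 2, and *Egln3*, *Adm*, *Slc2a1*, *Car9* and *Ndrg1* turned from lower to higher values, none called. *Vegfa* was higher by 0.24 with and 0.42 without replicate 2 (edgeR, adjusted p = 0.604 and 0.131), and its groups overlapped. Of the 10 log2 fold changes, 8 were below and 2 above 0 with all libraries, and 3 below and 7 above 0 without replicate 2.

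The DHPS knockdown was set against the same control to test the loss of the hypusination enzyme. Of the 9 tested genes, 0 were called beside 4.22% of all genes, 3 had an unadjusted p under 0.05, as had 3769 of the 19525 genes, and DESeq2 called 0. *Ankrd37* measured 1.81 ± 0.256 CPM (SD, n = 4), which put its log2 difference at -2.33 (SE 0.65), or -0.89 (SE 0.25) without replicate 2. ASP shSCR is also the control of the GRIN2D comparison. *Ankrd37*, *Pdk1* and *Egln3* lay lower with no overlap, with or without replicate 2, as did 5.8% and 6.76% of all genes. *Pdk1* had a log2 fold change of -1.14 (edgeR, Benjamini-Hochberg adjusted p = 0.0808), which was -0.39 (edgeR, adjusted p = 0.0766) without replicate 2. It was called without ASP shSCR replicate 1 (edgeR, adjusted p = 0.0447) or replicate 3 (edgeR, adjusted p = 0.0336), over a range of 0.000982 to 0.504 in 16 alternatives. *Egln3* was not called, at -0.52 (edgeR, adjusted p = 0.133), and -0.16 (edgeR, adjusted p = 0.411) without replicate 2.

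Without replicate 2 of both shSCR groups, *Ndrg1* rose in ASP shDHPS by a log2 fold change of 0.42 (standard error 0.10; edgeR, Benjamini-Hochberg adjusted p = 0.0145), with 409 ± 31.3 CPM (SD, n = 4) against 306 ± 26.6 CPM (SD, n = 3). *Ndrg1* and *Slc2a1* lay higher with no overlap, beside 6.8% of all genes. In this fit 2.9% of all genes were called. With all libraries its log2 fold change was -0.23 (edgeR, adjusted p = 0.693). The call was lost when ASP shSCR replicate 1 was also left out (0.35; edgeR, adjusted p = 0.133) and held in the 6 other such fits. It was also not made when ASP shSCR replicate 2 alone was left out (0.42; edgeR, adjusted p = 0.133), so it rested as well on leaving out the NoASP shSCR library, which enters this comparison only through the shared spread. The direction of *Ndrg1* thus depended on ASP shSCR replicate 2.

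**Figure D3:**
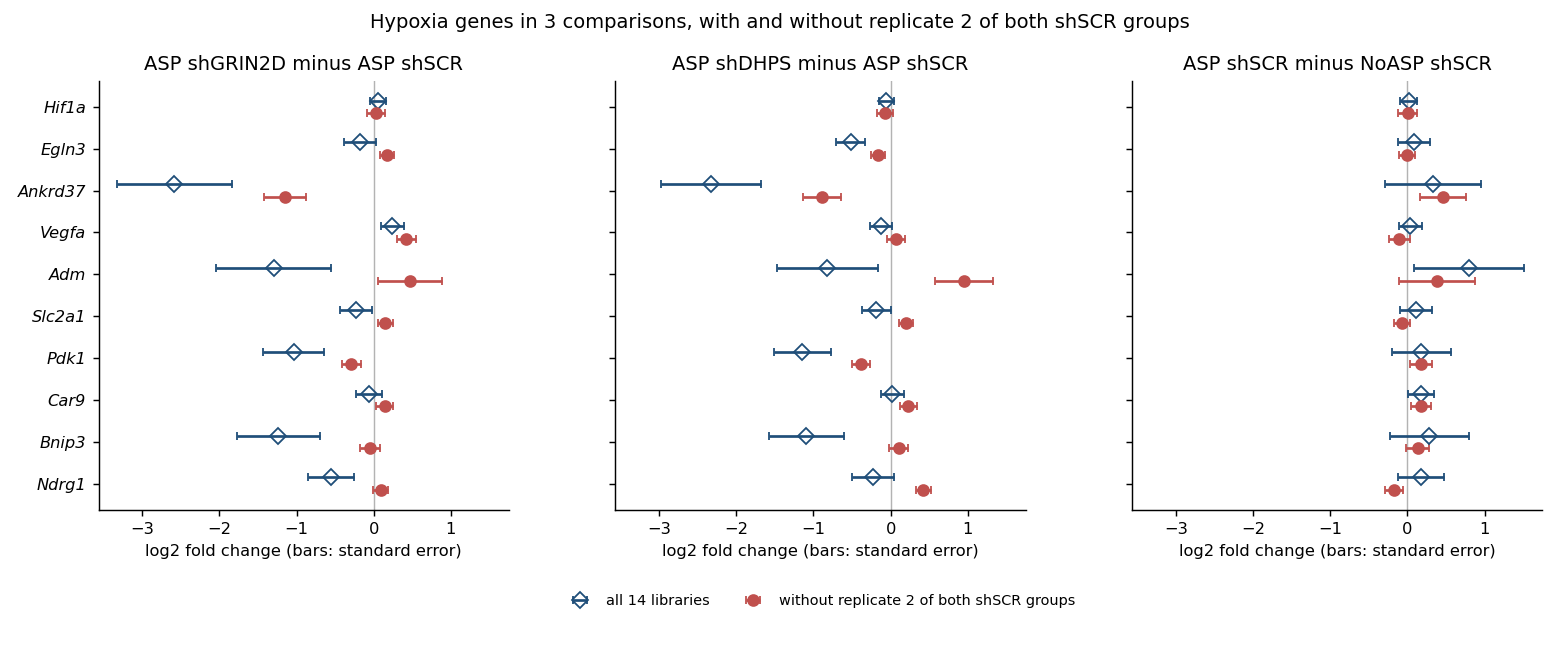
Log2 fold change of each hypoxia gene in 3 comparisons, with bars for its standard error. Open diamonds use all 14 libraries and filled points leave out replicate 2 of both shSCR groups; *Ankrd37* and *Pdk1* stay below 0 in both knockdowns, while *Adm*, *Slc2a1* and *Ndrg1* change sign.

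Low *Ankrd37* in the knockdowns was also compared with the shSCR libraries without aspartate, so that knockdown and aspartate differ together. Without replicate 2, the 7 knockdown libraries lay between 1.2 and 2.13 CPM and the 5 shSCR libraries between 2.06 and 3.85 CPM. Against NoASP shSCR, the log2 fold change was -2.26 (standard error 0.77) for ASP shGRIN2D and -2.0 (0.68) for ASP shDHPS, and -0.69 (0.31) and -0.43 (0.29) without replicate 2. The groups were apart for ASP shGRIN2D, as for 7.67% of all genes lower in it (13.7% without replicate 2), and overlapped for ASP shDHPS, where NoASP shSCR replicate 4 (2.06 CPM) lay under ASP shDHPS replicate 2 (2.13 CPM). In these comparisons 0 of the 9 other genes were called by edgeR or DESeq2, beside 0.681% and 1.81% of all genes, with 0 and 2 at an unadjusted p under 0.05 (1812 and 3191 of all genes). Without replicate 2, edgeR called 0 as well, and *Car9* was higher by 0.32 and 0.41 (edgeR, adjusted p = 0.396 and 0.142). Of all 10 log2 fold changes, 3 and 1 were above 0 with all libraries, and 7 and 5 without replicate 2. Same-numbered libraries of ASP shDHPS and NoASP shSCR deviated together, and with the replicate block *Pdk1* was called lower in ASP shDHPS (-0.72; edgeR, adjusted p = 0.0312, with 0.0312 to 0.876 among 15 alternatives). Without the block *Pdk1* was not called, at -0.96 (edgeR, adjusted p = 0.213), or -0.21 without replicate 2 (edgeR, adjusted p = 0.538). The *Pdk1* groups overlapped in both cases.

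Both knockdowns were compared directly, which cancels the shared control. *Ankrd37* differed by 0.25 on the log2 scale (standard error 0.80, 95% confidence interval from -1.41 to 1.92). Without replicate 2 it differed by 0.26 (standard error 0.27, 95% confidence interval from -0.30 to 0.82). Both intervals held 0 and the groups overlapped, which is given as a description and not read as a test. Of the 9 tested genes, 0 were called beside 2.82% of all genes, 1 (*Vegfa*, 74.9 ± 10.5 CPM in ASP shDHPS and 96.3 ± 15.3 CPM in ASP shGRIN2D, SD, n = 4 and 3) had an unadjusted p under 0.05, as had 2898 of all genes, and DESeq2 called 0. With all libraries *Egln3* lay lower and *Ndrg1* higher in ASP shDHPS with no overlap, beside 7.47% and 7.61% of all genes. The log2 fold change of *Vegfa* was -0.36 (edgeR, Benjamini-Hochberg adjusted p = 0.240). Without replicate 2 of the shSCR groups, which enter here only through the shared spread, 2 were called beside 4.35% of all genes. *Egln3* was lower in ASP shDHPS by a log2 fold change of -0.33 (edgeR, adjusted p = 0.0304) and *Ndrg1* higher by 0.33 (edgeR, adjusted p = 0.0465). Each call was lost in 4 of 7 fits that left out 1 more library. For *Egln3* these were without ASP shGRIN2D replicates 1 and 2 and ASP shDHPS replicates 2 and 4, where the log2 fold change lay between -0.34 and -0.27. For *Ndrg1* these were without ASP shGRIN2D replicates 1 and 2 and ASP shDHPS replicates 3 and 4, where it lay between 0.25 and 0.35.

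The wider pathway was counted over fixed lists. Among HIF and its regulators other than the 10 genes, 17 of 18 were measured. With aspartate 0 passed, and with the GRIN2D knockdown 0 passed by edgeR or DESeq2 (0 and 1 at an unadjusted p under 0.05). With the DHPS knockdown 1 rose and 2 fell (17.6% beside 4.22% of all genes), with a median log2 fold change of -0.03 beside 0.00 for all genes. *Siah2*, a ubiquitin ligase that removes prolyl hydroxylases, rose from 23.9 ± 1.04 to 32.5 ± 1.48 CPM (SD, n = 4 each; log2 fold change 0.44, edgeR, Benjamini-Hochberg adjusted p = 0.0134), and was named after its value was seen, as was *Ep300*. *Ep300*, a HIF coactivator, fell (-0.40, edgeR, adjusted p = 0.04995), a call lost without replicate 2 (edgeR, adjusted p = 0.145). *Epas1*, the alpha subunit of HIF-2, had 0 to 2 counts in ASP shDHPS and 7 to 32 in ASP shSCR (edgeR, adjusted p = 0.00415), and no fold is given for so few counts. Against NoASP shSCR, 0 regulators passed by edgeR for either knockdown, with 1 (GRIN2D) and 5 (DHPS) at an unadjusted p under 0.05 and 0 and 2 by DESeq2. Between both knockdowns *Siah2* was higher (0.47) and *Ep300* lower (-0.45) in ASP shDHPS (11.8% beside 2.82% of all genes). The other regulators were not called by edgeR in these comparisons. With the DHPS knockdown, *Arnt* measured 48.0 ± 5.11 against 58.3 ± 7.86 CPM, *Vhl* 23.4 ± 3.48 against 25.8 ± 6.03 CPM, *Egln1* 119 ± 6.75 against 144 ± 65.1 CPM and *Hif1an* 58.4 ± 4.85 against 60.8 ± 3.17 CPM (SD, n = 4 each).

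Of 37 HIF target genes other than the 10, 34 were measured. With aspartate 0 were called (0 at an unadjusted p under 0.05). With the GRIN2D knockdown 0 were called by edgeR or DESeq2 and 12 had an unadjusted p under 0.05, and the median log2 fold change was -0.27 beside 0.00 for all genes. Without replicate 2 the median was -0.08, and 1 was called higher and 1 lower (5.88% beside 1.23% of all genes). With the DHPS knockdown 3 rose and 1 fell (11.8% beside 4.22% of all genes). *Hmox1*, heme oxygenase, rose from 34.0 ± 7.56 to 82.5 ± 21.6 CPM (SD, n = 4 each), *Angptl4* from 17.9 ± 7.75 to 45.7 ± 9.02 CPM and *Tfrc*, the transferrin receptor, from 208 ± 37.4 to 290.5 ± 38.3 CPM. The glycolytic *Aldoc* fell from 15.8 ± 10.2 to 7.16 ± 1.26 CPM. All 4 were also called without replicate 2, and these genes and those above were named after their values were seen. The median over the list was -0.14, and 0.08 without replicate 2, so its sign rested on these libraries. Against NoASP shSCR, 1 target, *Hmox1*, was called higher with the DHPS knockdown (0.99), a call lost without replicate 2, where 0 were called. With the GRIN2D knockdown 0 were called, with or without replicate 2, and 0 differed between both knockdowns with all libraries. In those with 0, edgeR with all libraries gave 7 and 6 at an unadjusted p under 0.05 and DESeq2 called 0. Without replicate 2, 2 targets were higher and 1 lower in ASP shDHPS than in ASP shGRIN2D (8.82% beside 4.35% of all genes).

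HALLMARK_HYPOXIA, as the deposited gene sets give it, had 169 of 196 genes measured outside the 10. With aspartate 0 were called by edgeR or DESeq2 (1 at an unadjusted p under 0.05). With the GRIN2D knockdown 1 rose and 3 fell (2.37% beside 1.16% of all genes), and the median was -0.09 beside 0.00. *Tgfb3*, a TGF-beta ligand, rose from 69.6 ± 2.99 to 97.3 ± 12.2 CPM (SD, n = 4 and 3), and *Tes* and *Tnfaip3*, an inhibitor of NF-kB signaling, fell by 0.43 and 0.77 on the log2 scale. With the DHPS knockdown 11 rose and 5 fell (9.47% beside 4.22%), and the median was -0.06 beside 0.00. Without replicate 2 both medians turned, to 0.01 and 0.03. The stress factor *Atf3* rose from 7.50 ± 1.50 to 18.6 ± 3.07 CPM and the matricellular *Ccn1* from 33.0 ± 4.50 to 76.7 ± 8.48 CPM (SD, n = 4 each). *Sdc3*, a syndecan, and *Tgm2*, a transglutaminase, fell by 0.54 and 0.61 on the log2 scale. All 7 genes were called with and without replicate 2.

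Against NoASP shSCR, the DHPS knockdown showed 7 HALLMARK_HYPOXIA genes outside the 10 higher and 3 lower (5.92% beside 1.81%). By the rule for naming, these included *Gpc4* and *Atf3* among the higher (1.03 and 1.01 on the log2 scale) and *Tgm2* and *Sdc3* among the lower (-0.63 and -0.54), of which *Sdc3* was lost without replicate 2 (edgeR, Benjamini-Hochberg adjusted p = 0.0501). The GRIN2D knockdown showed 0 against NoASP shSCR by edgeR, 33 at an unadjusted p under 0.05 and 5 by DESeq2. Between both knockdowns, 10 were higher and 5 lower in ASP shDHPS (8.88% beside 2.82%), with *Ccn1* and *Xpnpep1* higher (0.99 and 0.37) and *Tgfb3* and *Tgm2* lower (-0.59 and -0.72).

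Over all 14 libraries, the genes most like *Ankrd37* among 9805 compared were *Ddit4*, *Pkp2*, *Plekha2*, *B3gnt3* and *Tnfrsf1b*, with Pearson r of log2 CPM of 0.99, 0.97, 0.96, 0.96 and 0.95. The libraries share groups and both replicate 2 libraries, and r is given as a description. Over the 12 other libraries r was 0.91, 0.73, 0.82, 0.68 and 0.63. The 5 most like genes there were *Ddit4*, *Trp53i11* (0.91), *Pate14* (0.88), *Ift172* (0.87) and *Vps54* (0.87), so *Ddit4* was the only gene in both lists. *Ddit4*, an inhibitor of mTOR signaling and a HIF target, measured 308 and 248 CPM in the replicate 2 libraries, 94.2 to 127 CPM in the other shSCR libraries and 71.5 to 93.7 CPM in the knockdowns. Among the 10 genes, *Pdk1* was most like *Ankrd37* over 14 libraries (0.96) and over 12 (0.62). *Bnip3* fell from 0.92 to 0.06 and *Slc2a1* from 0.78 to -0.64.

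**Figure D4:**
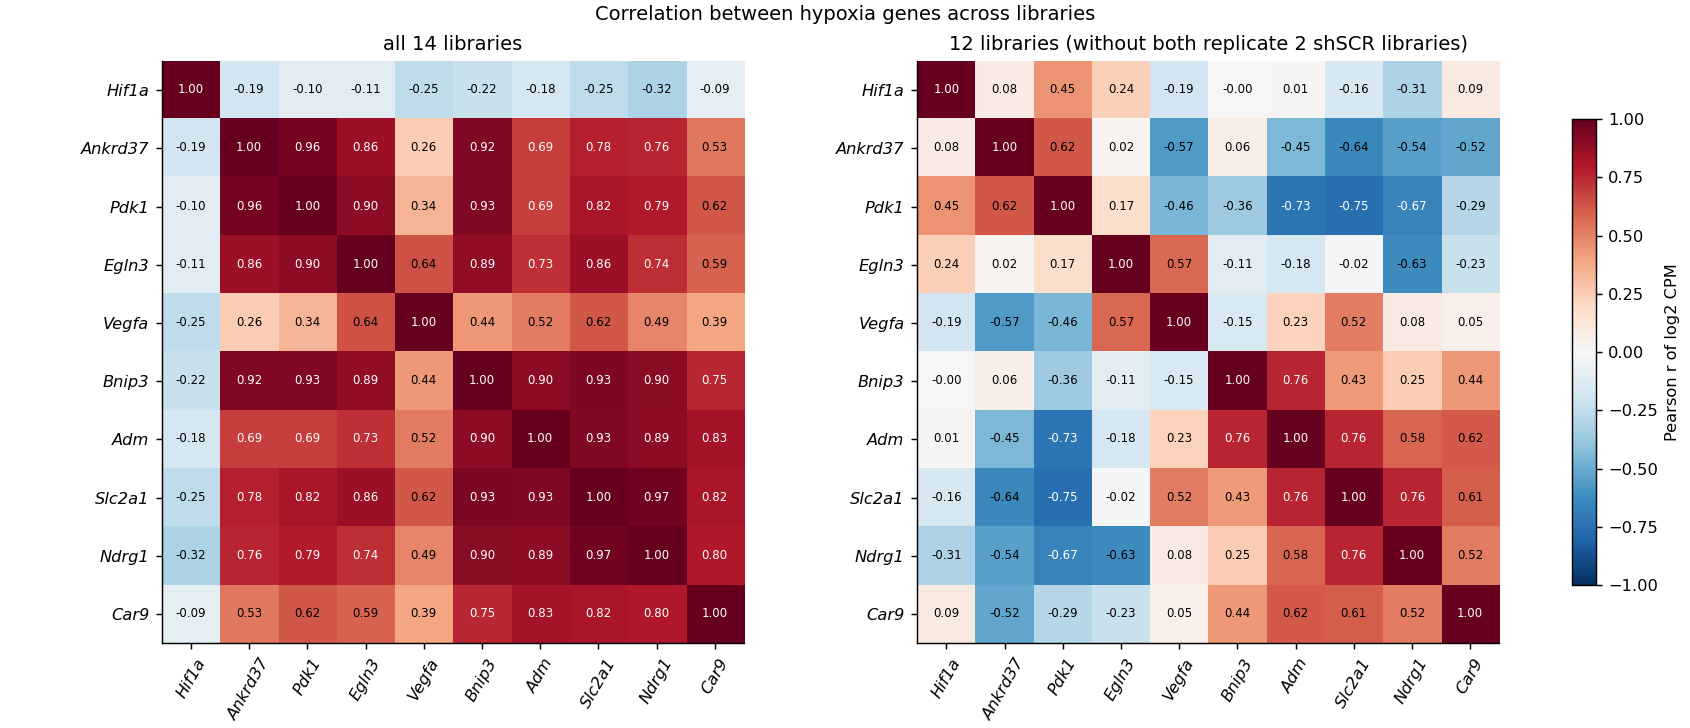
Pearson r of log2 CPM between the hypoxia genes over all 14 libraries (left) and over the 12 without both replicate 2 shSCR libraries (right); color gives r from -1 to 1. On the left 9 genes correlate positively with each other (*Ankrd37* with *Bnip3* 0.92), and on the right *Ankrd37* keeps 0.62 with *Pdk1* and has -0.64 with *Slc2a1*.

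Across the 12 libraries the 10 genes did not move as 1 group. *Slc2a1*, *Ndrg1* and *Adm* correlated positively with each other (0.58 to 0.76) and negatively with *Pdk1* (-0.75 to -0.67). In these bulk libraries, fewer cells of a kind and less RNA per cell cannot be told apart.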

How the data were processed

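The deposited values were gene counts. Before deposit, the authors used Trim Galore 0.6.6 for trimming and FastQC 0.11.9 for quality, aligned them with STAR 2.6.1 to GRCm39, estimated counts with Salmon 1.4.0, rounded them to whole numbers and removed genes hardly expressed in any condition. Deposited fold changes, p-values and enrichment scores of the authors' own DESeq2 and gene set runs were not used; the deposited gene sets supplied HALLMARK_HYPOXIA.

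All 19525 genes of 14 libraries were fitted with edgeR 4.0.16 in R 4.3.3 (TMM, quasi-likelihood test, group as the only term), Benjamini-Hochberg adjusted over all genes and called at 0.05. Log2 CPM used a prior count of 2. DESeq2 1.42.0, other filters and scalings, a replicate block, and leaving out libraries were alternatives. The code was tested on simulated data. Total counts of 12731123 to 23231378 leave low genes, such as *Ankrd37* and *Adm*, with few reads.

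The members and lists were chosen with earlier results of these data known. The named genes were the 10 members; in each comparison the 4 called HALLMARK_HYPOXIA or HIF list genes with the lowest p, at most 2 a direction, with 5 CPM in the higher group; *Epas1*, *Arnt*, *Vhl*, *Egln1* and *Hif1an*; and the 5 genes most like *Ankrd37* over 14 libraries. Library pairs within a group differed by more than sampling noise. Same-numbered libraries deviated together for aspartate (r of 0.514, 0.287 and 0.203) and for ASP shDHPS with NoASP shSCR (0.205, 0.307 and 0.373), where the block is given beside the result; what the number marks is not stated in the labels.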

Additional observations from a re-analysis of the deposited data

Results flagged for a closer look

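Of 20 sets of 4 libraries checked, 8 held a library further from the others than Dixon's 95% limit allows. Chance alone gives about 1 in 20, but that rate does not apply to 7 of the 8, which are replicate 2 levels known when the genes were chosen and are a description. In ASP shSCR the library was replicate 2 for 7 genes, with 215 CPM of *Egln3*, 26.3 CPM of *Ankrd37*, 11.7 CPM of *Adm*, 302 CPM of *Slc2a1*, 107 CPM of *Pdk1*, 205 CPM of *Bnip3* and 999.7 CPM of *Ndrg1*. In ASP shDHPS it was replicate 2 for *Ndrg1*, which was low at 363 CPM and only just past the limit. The groups of 3 were not checked, so replicate 2 of NoASP shSCR, also high for these genes, could not be found in this way.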

How the results depend on the processing

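Among the values repeated under alternatives, some of them given no test, 682 kept direction and, where tested, side of the threshold. Of the rest, 48 changed sign, 10 became called, 9 lost a call and 3 values with no test moved in size. Among the 9 tested hypoxia genes, which leave out *Ankrd37*, the count called was 0 in every comparison. For DHPS it became 1 with only the groups compared (673 of all genes). It was 0 to 1 without single libraries and 1 without both replicate 2 shSCR libraries (566 of all genes), and 2 between both knockdowns without the latter. Without both replicate 2 libraries these log2 fold changes changed sign. For aspartate they were *Egln3* -0.0042, *Vegfa* -0.11, *Slc2a1* -0.071 and *Ndrg1* -0.17. For GRIN2D they were *Egln3* 0.17, *Adm* 0.47, *Slc2a1* 0.15, *Car9* 0.14 and *Ndrg1* 0.089. For DHPS they were *Vegfa* 0.064, *Adm* 0.95, *Slc2a1* 0.20, *Bnip3* 0.10 and *Ndrg1* 0.42. Against NoASP shSCR they were *Egln3* 0.17, *Adm* 0.85, *Slc2a1* 0.080 and *Bnip3* 0.084 for GRIN2D and *Adm* 1.33, *Slc2a1* 0.13, *Bnip3* 0.24 and *Ndrg1* 0.25 for DHPS. Leaving out 1 library gave, for aspartate, *Hif1a* -0.021 to 0.077, *Egln3* -0.26 to 0.35, *Vegfa* -0.15 to 0.12, *Adm* -0.97 to 2.15, *Slc2a1* -0.27 to 0.31, *Pdk1* -0.57 to 0.93, *Car9* -0.028 to 0.39, *Bnip3* -0.90 to 1.32 and *Ndrg1* -0.47 to 0.48. For GRIN2D it gave *Egln3* -0.30 to 0.17, *Adm* -1.62 to 0.47, *Slc2a1* -0.34 to 0.15, *Car9* -0.17 to 0.14 and *Ndrg1* -0.75 to 0.090. For DHPS it gave *Hif1a* -0.16 to 0.032, *Vegfa* -0.22 to 0.060, *Adm* -1.19 to 0.94, *Slc2a1* -0.30 to 0.20, *Car9* -0.087 to 0.22, *Bnip3* -1.35 to 0.10 and *Ndrg1* -0.42 to 0.42, and between both knockdowns *Slc2a1* -0.013 to 0.085. The cause was not tested.

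With the replicate block, 1 of the 9 tested hypoxia genes was called for aspartate within the 7 shSCR libraries, 1 for GRIN2D (*Pdk1* -0.88), 2 for DHPS (*Pdk1* -0.91, *Egln3* -0.45) and 1 for DHPS against NoASP shSCR, and *Hif1a* with aspartate was -0.028. Same-numbered libraries had r of -0.10, -0.12 and 0.042 for GRIN2D, and of 0.258, 0.195, 0.201 and 0.040 for DHPS, where 3 of 4 pairs deviated together and the pairing was not taken as shown. Over all genes the block raised the calls from 226 to 611, 824 to 2150, 133 to 338 (GRIN2D against NoASP shSCR), 354 to 1036 (DHPS against NoASP shSCR) and 550 to 1468 (both knockdowns).

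In the same order DESeq2 called 442, 1379, 327, 898 and 933 genes. Only the groups compared gave 374 for GRIN2D and 246 and 177 against NoASP shSCR. Without both replicate 2 libraries, 150 were called for DHPS against NoASP shSCR and 849 between both knockdowns. Leaving out 1 library gave 86 to 208, 412 to 894, 56 to 121, 69 to 686 and 209 to 577, and 0 to 1 for aspartate.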
